A study of Mus musculus with 20 samples.

Results

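The comparison described here sets microglia of mice labelled hC4B/- against microglia of WT mice, 4 libraries of each, which are 8 of the 20 libraries in the series. Members were taken by title, with earlier results of these data known. A measured value, the number of genes detected, set which hC4B/- libraries were left out in a 2nd fit. All mice were at postnatal day 40 and the tissue was frontal cortex. A sorter collected 1000 CD11b-high, CD45-low cells for each sample, and their RNA was turned into libraries by template switching and a Nextera kit. WT carries no further allele in the labels. hC4B stands for the human complement gene C4B, and the slash and dash are given without a statement of what remains of the mouse C4 genes. The other 12 libraries are labelled C4-/- (n = 5), hC4A/- (n = 5) and hC4A/A (n = 2).

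Complement C4 is a plasma and tissue protein of the classical pathway: C1q, C1r and C1s cleave it, and its larger fragment binds covalently to nearby surfaces and helps to form the enzyme that cleaves C3. In the brain, complement deposited on synapses is read by microglia through the C3 receptor, of which CD11b (Itgam) is a subunit, and this route is known for the removal of synapses during development. Humans have C4A and C4B, whose products prefer different chemical groups on the target surface. Microglia are the resident macrophages of the brain.

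C4b, the mouse gene for complement C4 (chromosome 17, 34728380 to 34743882, GRCm38), was the first gene examined, as a check of the labels. Its level in TMM-scaled CPM, a count scaled for the size and composition of the library, was 3.84, 277, 291 and 2.92 in hC4B/- 1 to 4, and 0, 0, 1.53 and 0 in WT 1 to 4. All 4 hC4B/- libraries were thus above all 4 WT libraries, but hC4B/- 2 and 3 held nearly all of the signal. The libraries held 671 counts of C4b in hC4B/- and 2 in WT, a scaled ratio of 456 with an exact 95% interval of 126 to 3773 for counting error only. The fitted log2 fold change was 8.66 (SE 1.69, edgeR adjusted p = 0.0917), and 3.51 (SE 1.5, edgeR adjusted p = 0.778) without hC4B/- 2 and 3. The libraries labelled C4-/- also held C4b, at 3.76 to 103 CPM. Gene counts do not tell mouse from human C4 sequence, so C4b does not serve as a check of the labels. C4a, the neighbouring mouse paralog (chromosome 17, 34809092 to 34823464), reached 14.5 and 3.4 CPM in hC4B/- 2 and 3 and 1.53 in WT 3, and was at 0 in the other 5 libraries. Reads of these near-identical genes may be split between them.

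hC4B/- 2 and 3 stood apart from the other 6 libraries. They held counts on 30041 and 30176 genes, against 14312 and 11471 in hC4B/- 1 and 4 and 11844 to 18586 in WT. Of 1733 olfactory and vomeronasal receptor genes, which microglia are not known to use, 62% and 58.1% had a count in hC4B/- 2 and 3, against 5.71% to 26.9% in the other 6. The summed gene counts were 1416287 to 2155808 in hC4B/- and 1706112 to 2412018 in WT. Satellite-like genes, 13 in number, took 56.6% ± 21.6 (SD, n = 4) of hC4B/- counts and 30.9% ± 15.9 (SD, n = 4) of WT counts, with a two-sided exact permutation p of 0.0571 (0.2 adjusted over 7 library measures; smallest possible 0.0286). On log2(CPM + 1) over genes, hC4B/- 1 and 4 had a Spearman correlation of 0.725 with each other and 0.68 to 0.75 with WT libraries, and hC4B/- 2 and 3 had 0.646 with each other and 0.42 to 0.51 with WT. Genes are not independent replicates, so this is a description. hC4B/- 2 and 3 were set aside by a limit of over 27000 genes detected, so their breadth is that criterion and not support for it. The share of receptor genes with a count goes with breadth. Results across genes are given with and without hC4B/- 2 and 3. For single genes, the fold change without them is given for some only.

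**Figure D1:**
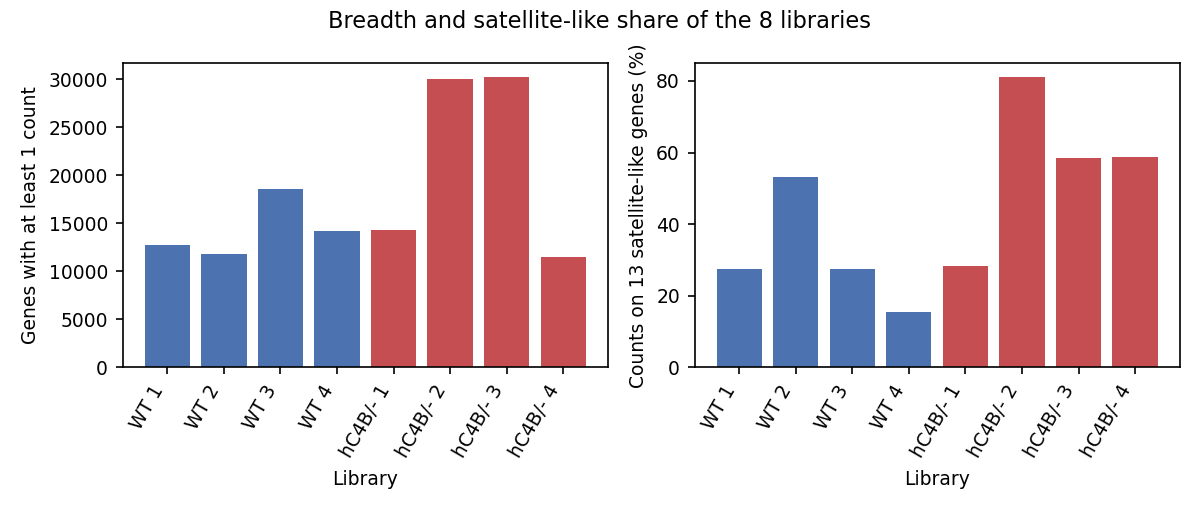
Genes with at least 1 count (left axis, number) and percent of gene counts on 13 satellite-like genes (right axis) in WT 1 to 4 (blue) and hC4B/- 1 to 4 (red); each bar is 1 library. hC4B/- 2 and 3 detect 30041 and 30176 genes, and no other library of the 8 is above 18586.

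Sex is not in the labels, and it differed between the groups by its marker genes. The 4 Y-linked genes Ddx3y, Eif2s3y, Kdm5d and Uty summed to 1005 and 1623 counts in WT 3 and 4, and to 0 to 3 counts in the other 6 libraries. The X-inactivation transcript Xist held 3 and 0 counts in WT 3 and 4 and 139 to 663 in the other 6. A fit against WT 1 and 2 alone was added after seeing these counts. Among the 62 genes followed through every setting, it moved the log2 fold change by more than 1 in C4b (8.66 to 10.95), C4a (3.45 to 5.94), Aloxe3 (8.48 to 10.67), Phf1 (5.76 to 7.25), Cspg4 (5.98 to 7.41), Bet1l (-5.03 to -3.73), Rgs1 (-2.76 to -1.68), Mmp8 (-5.36 to -6.57), Ngp (-3.37 to -4.46) and Il6 (-3.43 to -0.55). All 4 deposited WT names also carry a letter that the other names, those of hC4B/- among them, lack. Genotype and any difference in how the libraries were made therefore cannot be told apart.

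Across genes, no gene passed the test. Of 12680 genes tested, 0 (0%) had an edgeR adjusted p under 0.05, and the smallest was 0.0917. At an unadjusted p under 0.05 there were 1658 genes (13.1%), of which 1172 (9.24%) were higher in hC4B/- and 486 (3.83%) were lower. DESeq2 called 53 genes on the same counts, 40 higher and 13 lower, and limma-voom called 0. RLE scaling called 0, but put 84.7% of the genes under the unadjusted level on the higher side, against 70.7% with TMM, and moved the median log2 fold change of the genes tested from 0.18 to 0.53. The biological coefficient of variation was 1.03, so the spread between libraries of 1 genotype was about as large as the level of a typical gene. Genes whose 4 hC4B/- libraries all lay on 1 side of the 4 WT libraries numbered 476 (3.75%): 189 above (1.49%) and 287 below (2.26%).

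Without hC4B/- 2 and 3, again 0 of 11801 genes passed (0%), with a smallest edgeR adjusted p of 0.565, and 730 (6.19%) had an unadjusted p under 0.05. The balance moved with it: 345 (2.92%) were higher and 385 (3.26%) were lower, and over all genes the median log2 fold change went from 0.18 to -0.19. hC4B/- 2 and 3 taken alone were above all 4 WT libraries for 3624 genes (28.6%) and below them for 1870 (14.7%), and hC4B/- 1 and 4 for 530 (4.18%) and 819 (6.46%). Genes that did not overlap and had an unadjusted p under 0.05 both with and without hC4B/- 2 and 3 numbered 112 of 12680. Of these, 68 were higher and 44 lower. Both fits share hC4B/- 1 and 4 and all 4 WT libraries, so passing both is not independent support.

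**Figure D2:**
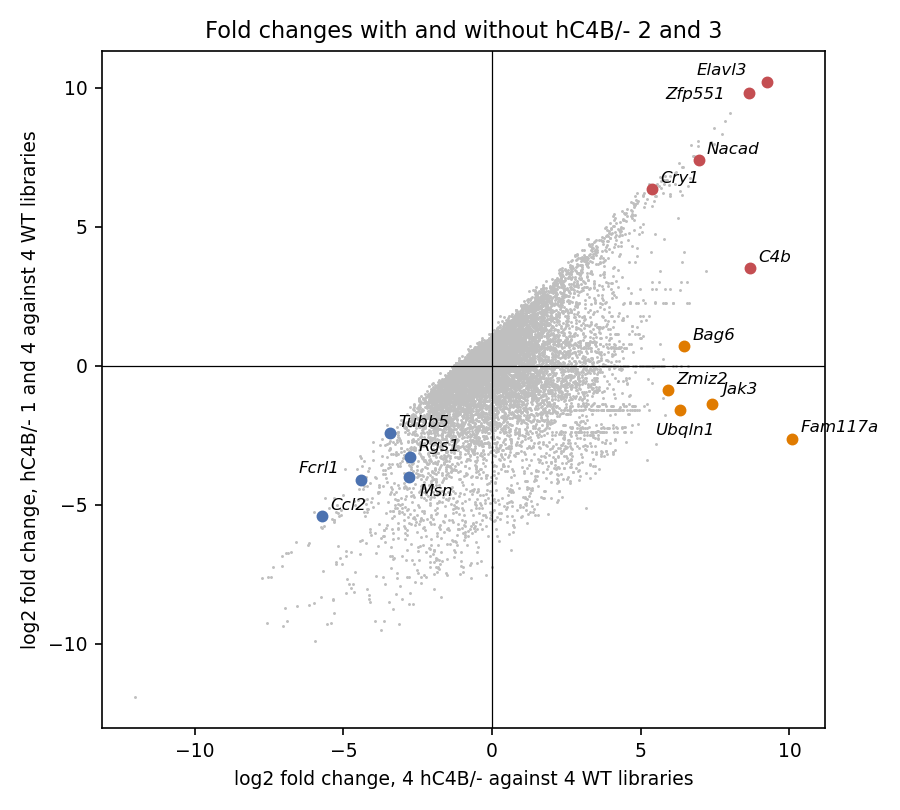
log2 fold change of hC4B/- against WT with all 4 hC4B/- libraries (horizontal axis) and with hC4B/- 1 and 4 only (vertical axis); each grey point is a gene tested in both fits. Ccl2 lies at -5.73 and -5.41, Elavl3 at 9.25 and 10.22, and Jak3 moves from 7.40 to -1.38.

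Ccl2, the chemokine that draws monocytes through the receptor CCR2, had the smallest p of all genes tested. It stood at 7.69, 2.41, 3.4 and 0.731 CPM in hC4B/- 1 to 4 and at 228, 130, 276 and 166 CPM in WT 1 to 4. The lowest WT library was far above the highest hC4B/- library. The log2 fold change was -5.73 (SE 1.09, edgeR adjusted p = 0.0917, n = 4 and 4), -5.41 without hC4B/- 2 and 3, and -5.69 against WT 1 and 2. Over the other settings tried, its adjusted p ran from 6.94e-06 in DESeq2 to 0.814.

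Tubb5, a beta-tubulin of the microtubules, stood at 226, 36.2, 27.2 and 187 CPM in hC4B/- and at 1009, 1039, 2369 and 791 CPM in WT. The groups did not overlap, and hC4B/- 2 and 3 were the lowest. Its log2 fold change was -3.45 (SE 0.89, edgeR adjusted p = 0.325), and -2.43 without hC4B/- 2 and 3. Msn, which encodes moesin, the linker of actin to the plasma membrane, stood at 9.4, 55.5, 51 and 14.6 CPM in hC4B/- and at 202, 221, 347 and 139 CPM in WT. Here hC4B/- 1 and 4 were the lowest, and the log2 fold change of -2.80 (SE 0.77, edgeR adjusted p = 0.332) became -4.01 without hC4B/- 2 and 3. Of the 10 genes of smallest p in the lower direction, 9 did not overlap between the groups, beside 2.26% of all genes. These 10 were picked by p in the same libraries, so little overlap follows from the choice.

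Cry1, a repressor of the circadian clock, went the other way. It stood at 27.8, 6.03, 6.13 and 40.2 CPM in hC4B/- and at 0.334, 0.712, 0.767 and 0 CPM in WT. Every hC4B/- library was above every WT library, and hC4B/- 1 and 4 were the highest. Its WT libraries held 3 counts in all, and the scaled ratio was 60.7 (exact 95% interval 20.3 to 298, counting error only). The log2 fold change was 5.38 (SE 1.36, edgeR adjusted p = 0.325), and 6.35 without hC4B/- 2 and 3. The upstream sequences of Cry1, Tubb5 and Msn are shown because these separated genes each hold the E-box CACGTG, the hexamer that clock factors of the CLOCK and BMAL1 type and MYC-family factors are known to bind. Each is the 150 bases before the RefSeq start (GRCm38.p6), 5′ to 3′ on the gene's strand, with the E-box in capitals.
Cry1, chr10:85185055-85185204, minus strand: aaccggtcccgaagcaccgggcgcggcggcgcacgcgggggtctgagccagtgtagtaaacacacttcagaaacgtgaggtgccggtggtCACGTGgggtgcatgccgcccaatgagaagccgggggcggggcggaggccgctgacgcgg
Tubb5, chr17:35838302-35838451, minus strand: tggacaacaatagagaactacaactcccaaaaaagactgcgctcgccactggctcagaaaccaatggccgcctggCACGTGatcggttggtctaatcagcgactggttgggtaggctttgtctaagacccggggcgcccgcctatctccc
Msn, chrX:96095895-96096044, plus strand: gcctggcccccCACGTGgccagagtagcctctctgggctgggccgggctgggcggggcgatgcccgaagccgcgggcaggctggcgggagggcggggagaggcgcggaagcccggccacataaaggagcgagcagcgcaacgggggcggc
The E-box begins 60 bases before the start in Cry1, 75 in Tubb5 and 139 in Msn. CACGTG reads the same on both strands, and 1978 of 32851 upstream windows of 250 bases (6.02%) held it. Cry1 was higher while Tubb5 and Msn were lower, so the hexamer went with no single direction here. Of 62 genes looked up, 49 had a window in that table, and 5 motifs were searched in it. Dusp2, P2ry12 and Slc16a1 also held the E-box, 109, 228 and 200 bases before the start, and their groups overlapped. The hexamer was thus held by genes with and without overlap, and whether it goes with separation was not tested.

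Of the 287 genes below WT in all 4 hC4B/- libraries, 4 more of small p are given here. Stx3, a syntaxin that docks vesicles at the plasma membrane, stood at 0, 4.82, 5.44 and 0 CPM in hC4B/- and at 34.7, 32.7, 27.6 and 57.3 CPM in WT, a log2 fold change of -3.93 (SE 1.28, edgeR adjusted p = 0.339). Bet1l, a SNARE of the Golgi, stood at 8.12, 4.82, 2.72 and 0.731 CPM against 11.3, 88.3, 421 and 34.1 CPM, so that WT 1 came close to hC4B/- 1. Ppp1r3b, a subunit that directs protein phosphatase 1 to glycogen, stood at 9.4, 10.9, 10.2 and 5.85 CPM against 47.7, 216, 108 and 37.8 CPM. The 4 hC4B/- values of Ppp1r3b were close together, and its log2 fold change was -3.49 with all 4 and -3.67 without hC4B/- 2 and 3. Fcrl1, an Fc receptor-like gene, stood at 1.71, 3.62, 10.9 and 12.4 CPM against 65.8, 191, 336 and 17.9 CPM, with WT 4 nearest to hC4B/-.

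Immediate early genes are switched on soon after a stimulus without new protein. Of 26 tested from a list of 36, 15 were below 0 and 11 above, beside 45.4% of all genes below 0 and 54.6% above. The median log2 fold change of the list was -0.65, against 0.18 over all genes. Rgs1, a brake on G protein signalling, stood at 6.83, 9.65, 10.2 and 1.46 CPM in hC4B/- and at 13, 27, 103 and 47.9 CPM in WT. Its groups did not overlap (log2 fold change -2.76, SE 0.95, edgeR adjusted p = 0.339). Jun, the AP-1 subunit, stood at 7.26, 24.1, 11.6 and 7.31 CPM against 69.4, 40.6, 92.8 and 46.3 CPM. The groups of Jun did not overlap either, with a log2 fold change of -2.32 (SE 0.83, edgeR adjusted p = 0.339) and -2.88 without hC4B/- 2 and 3.

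Fos, the partner of Jun in AP-1, stood at 4.7, 3.62, 0.681 and 17.5 CPM against 10.01, 107, 38.3 and 53.6 CPM, and the groups overlapped through hC4B/- 4 and WT 1. Atf3, a stress-induced member of the same family, stood at 0, 2.41, 1.36 and 0 CPM against 4.01, 72.6, 1.53 and 72.7 CPM. WT 2 and 4 carried its signal, and WT 3 lay within the hC4B/- range. Ier3 held 0 counts in hC4B/- and 22, 1, 0 and 4 counts in WT 1 to 4, so WT 1 carried most of them, WT 3 overlapped hC4B/-, and the log2 fold change of -5.17 was -3.59 without WT 1. Dusp2, a phosphatase of MAP kinases, held 17 counts in hC4B/- 2 and 3, and 0 in hC4B/- 1 and 4 and in WT. Pooled over the libraries of a group, its counts were at least 7.7-fold higher with 3 counts set as the floor of a group. hC4B/- 1 and 4 did not differ from WT. Jun, Ier3 and Dusp2 were chosen after their values were seen. These were the 5 lower and 1 higher of the 26 at an unadjusted p under 0.05, beside 3.83% lower and 9.24% higher of all genes, Dusp2 being the higher.

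Chemokines, cytokines and their control followed a mixed course. Of 15 chemokines and cytokines tested, 10 were below 0 and 5 above, and Ccl2 was the 1 whose groups did not overlap, beside 45.4% of all genes below 0 and 2.26% lower without overlap. Il6, the pleiotropic cytokine, stood at 0.731 to 5.55 CPM in hC4B/- and at 6.01, 2.14, 123 and 2.44 CPM in WT, so WT 3 was far above the other 7 libraries. In the NF-kB list, 15 of 24 were below 0, and 2 were lower and 1 higher without overlap. Nfkbid, an atypical nuclear inhibitor of that pathway, stood at 2.99, 7.24, 8.85 and 0 CPM against 30.7, 24.9, 65.9 and 28.8 CPM, without overlap (log2 fold change -2.98, SE 1.18, edgeR adjusted p = 0.350). Tnip1, which restrains NF-kB together with the enzyme A20, stood higher without overlap at 2.14, 8.44, 36.8 and 9.5 CPM against 1.34, 0.712, 0.767 and 0.406 CPM.

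Single genes of the complement and cytokine receptor lists separated downward. C5ar1, the receptor of the complement fragment C5a, stood at 114, 9.65, 23.1 and 114 CPM against 235, 298, 705 and 202 CPM. It did not overlap, and its log2 fold change of -2.45 (SE 0.84, edgeR adjusted p = 0.339) was -1.41 without hC4B/- 2 and 3. In the complement list, 9 of 17 tested were below 0 and 8 above, and C4b and C5ar1 were the members without overlap, beside 3.75% of all genes. Il7r, the interleukin 7 receptor chain, stood at 82.4, 20.5, 29.3 and 49 CPM against 130, 149, 498 and 189 CPM, with a log2 fold change of -2.41. That value ran from -2.85 to -1.13 over the other settings tried. Stat3, which transmits signals of the interleukin 6 family, stood at 46.6, 55.5, 24.5 and 48.2 CPM against 210, 90.4, 163 and 64.2 CPM, and was chosen after its values were seen.

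In 3 other lists, at most 2 members lay below WT without overlap: 1 of 17 chaperones, 2 of 32 lysosomal genes and 1 of 17 antigen presentation genes, beside 2.26% of all genes. Hsp90aa1, an inducible chaperone, stood at 17.7 to 64.3 CPM in hC4B/- and 90.6 to 380 CPM in WT. Lipa, the lysosomal acid lipase, stood at 14.5 to 26.3 CPM against 41.4 to 122 CPM. Tap2, a subunit of the peptide transporter for MHC class I, stood at 7.49 to 10.2 CPM against 14.7 to 59.1 CPM. Their log2 fold changes were -2.12, -1.91 and -1.98, and none had an edgeR adjusted p below 0.350 in the main fit. Over the other settings tried, the fold changes shrank to as little as -0.87, -1.31 and -1.31. The other tested members of these lists stood on both sides of 0.

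**Figure D3:**
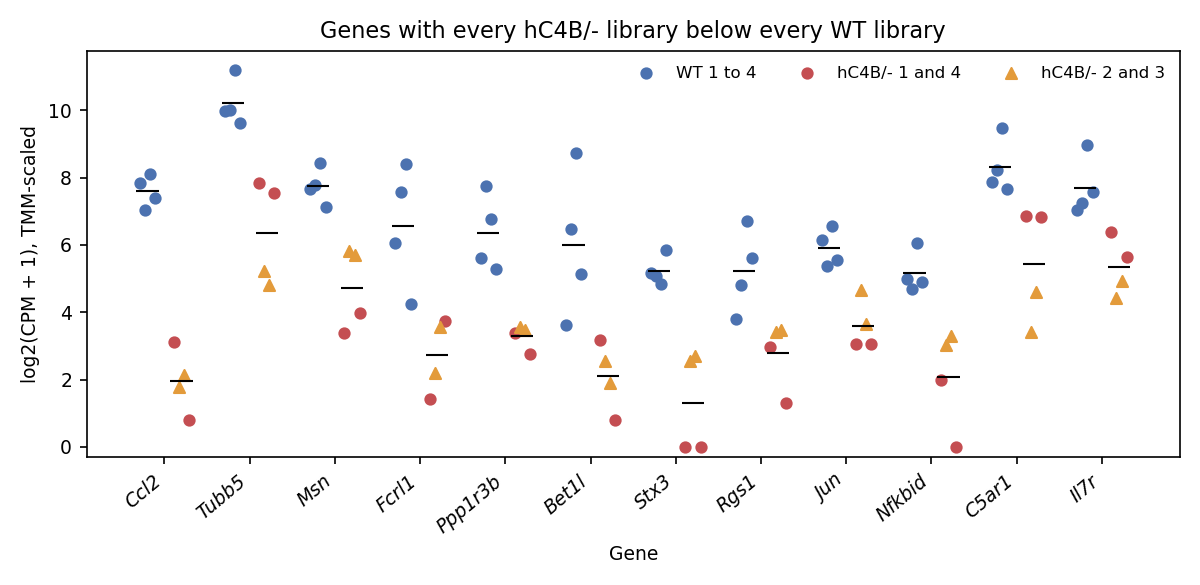
log2(CPM + 1) of 12 genes (vertical axis, TMM-scaled) in WT 1 to 4 (blue), hC4B/- 1 and 4 (red) and hC4B/- 2 and 3 (orange triangles); points are libraries and black lines are means of the log values. In every gene shown, all 4 hC4B/- libraries lie below all 4 WT libraries, as for Ccl2 with 0.731 to 7.69 CPM against 130 to 276 CPM.

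Of the genes above WT in all 4 hC4B/- libraries, several were at or near 0 in WT. Elavl3, a neuronal RNA-binding protein, stood at 159, 4.82, 5.44 and 2.19 CPM in hC4B/- and at 0 in all 4 WT libraries, so hC4B/- 1 set its size. Its counts pooled over libraries were at least 176-fold higher with that floor for WT, with a fitted log2 fold change of 9.25 (SE 2.07, edgeR adjusted p = 0.292). Nacad, related to the nascent polypeptide-associated complex, stood at 0.854, 4.82, 11.6 and 17.5 CPM against 0 in WT, at least 21.3-fold higher by the same floor. Zfp551, a zinc finger gene, stood at 59.4, 1.21, 1.36 and 49.7 CPM against 0 in WT, at least 95.2-fold higher. In these 3 genes the order of the hC4B/- libraries differed from gene to gene.

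Diexf, a nucleolar factor of ribosome assembly, stood at 50.4, 13.3, 4.08 and 11.7 CPM against 1.34, 0.712, 0.767 and 0 CPM, with a log2 fold change of 4.68 and 5.37 without hC4B/- 2 and 3. Cspg4, the NG2 proteoglycan of oligodendrocyte precursors and pericytes, stood at 25.6, 14.5, 6.13 and 0.731 CPM against 0, 0, 0 and 0.406 CPM. WT held 1 count of Cspg4 in all, and the scaled ratio was 111 (exact 95% interval 19.5 to 4456).

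At higher levels, Rnf130, a membrane ubiquitin ligase, stood at 75.2, 42.2, 51.7 and 24.8 CPM against 12, 12.8, 12.3 and 13.8 CPM. The WT libraries of Rnf130 were nearly equal, and its log2 fold change was 1.93 (SE 0.71, edgeR adjusted p = 0.343) and 2.03 without hC4B/- 2 and 3. Strn4, a striatin scaffold of phosphatase 2A, stood at 91.8, 36.2, 38.8 and 28.5 CPM against 8.01, 2.14, 6.9 and 19.5 CPM. Plek, the protein kinase C substrate pleckstrin, stood at 30.8, 67.5, 137 and 47.5 CPM against 12, 19.9, 17.6 and 26 CPM, and Cdk13, a kinase of RNA polymerase II, at 43.6, 44.6, 29.3 and 63.6 CPM against 17.4, 26.3, 14.6 and 15 CPM. The log2 fold changes of Strn4, Plek and Cdk13 were 2.40, 1.90 and 1.30, with edgeR adjusted p of 0.343, 0.353 and 0.416. Narf, Cep192, a centrosome protein, and Apbb1ip, an adaptor of integrin activation, also separated, at 31.4 to 76 against 4.34 to 20.3 CPM, 24.1 to 59.4 against 10.3 to 21.5 CPM, and 51.7 to 109 against 37.4 to 51.2 CPM. Their log2 fold changes were 1.78, 1.36 and 0.71. The groups of Apbb1ip nearly touched, and its edgeR adjusted p was 0.609.

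**Figure D4:**
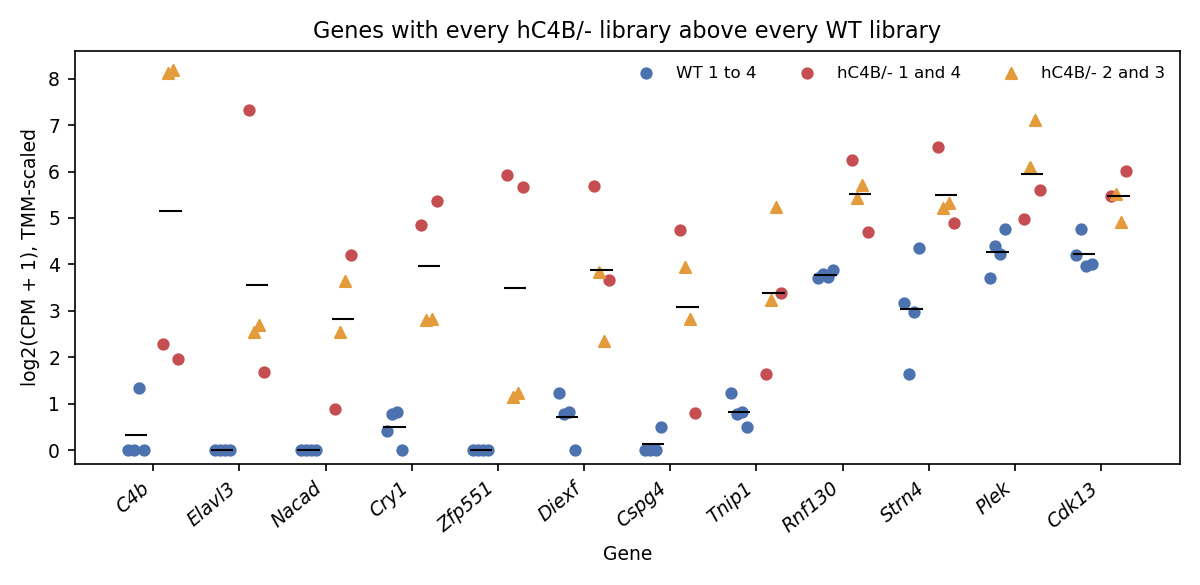
log2(CPM + 1) of 12 genes (vertical axis, TMM-scaled) in WT 1 to 4 (blue), hC4B/- 1 and 4 (red) and hC4B/- 2 and 3 (orange triangles); points are libraries and black lines are means of the log values. All 4 hC4B/- libraries lie above all 4 WT libraries in each gene, with hC4B/- 2 and 3 highest in C4b and hC4B/- 1 highest in Elavl3.

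Most of the genes of smallest p in the higher direction rested on hC4B/- 3. Of those 10, also picked by p, C4b, Elavl3 and Nacad did not overlap, beside 1.49% of all genes. The other 7 were high in that library. Jak3, a kinase of the common gamma chain receptors, stood at 0.854, 26.5, 1712 and 0.731 CPM against 2.34, 1.42, 5.37 and 1.22 CPM in WT. Bag6, a chaperone for membrane proteins, reached 2443 CPM in hC4B/- 3 and 42.2 CPM or less in the other 7 libraries. Ubqln1, a ubiquitin-like shuttle to the proteasome, reached 2281 CPM there and 18.1 CPM or less elsewhere.

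Fam117a and Zmiz2, the latter a co-regulator of androgen receptor, reached 1872 and 1566 CPM in hC4B/- 3, and Phf1 and Aloxe3 reached 438 and 470 CPM. Without hC4B/- 2 and 3, the log2 fold change of Jak3 was -1.38 instead of 7.40, that of Fam117a -2.63 instead of 10.09, that of Ubqln1 -1.60 instead of 6.32, and that of Zmiz2 -0.89 instead of 5.91. Bag6 went from 6.46 to 0.71 and Phf1 from 5.76 to 0.24, and Aloxe3 was not tested there. Tpi1, a glycolytic enzyme, was also highest in hC4B/- 3, at 402 CPM. hC4B/- 2, which was as broad, stood at 1.21 CPM for Tpi1.

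Of the 8 most abundant protein-coding genes below WT in all 4 hC4B/- libraries, Tubb5 among them, 7 were lowest in hC4B/- 2 and 3. The exception, Dctn5, a dynactin subunit, stood at 1113, 21.7, 976 and 887 CPM against 1984, 1591, 2455 and 1196 CPM in WT, with hC4B/- 2 far below the other 3. Rbm26, an RNA-binding protein, stood at 1609, 42.2, 159 and 1377 CPM against 1740, 1663, 3621 and 2166 CPM in WT. Klf13, a Krüppel-like factor, stood at 1325, 28.9, 136 and 943 CPM against 1410, 1419, 4478.5 and 1327 CPM. Ewsr1, a regulator of transcription and splicing, stood at 931, 42.2, 33.3 and 487 CPM against 1474, 1696, 1073 and 1373 CPM. The groups did not overlap in these 3 genes, but hC4B/- 1 lay just below WT in Rbm26 and Klf13. Their log2 fold changes of -1.53, -1.83 and -1.91 became -0.41, -0.69 and -0.92 without hC4B/- 2 and 3.

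Microglial identity genes were present in all 8 libraries. All 15 microglia markers had counts in each, and their summed level was 6581 to 12396 CPM in hC4B/- and 8853 to 12758 CPM in WT. P2ry12, the purinergic receptor of surveying microglia, stood at 664, 419, 350 and 524 CPM against 604, 520, 449 and 709 CPM. It was chosen after its values were seen, and its log2 fold change of -0.22 turned sign under several settings. Among 22 homeostatic genes, 11 were above 0 and 11 below, and 0 had an unadjusted p under 0.05. Fcrls, a microglial Fc receptor-like gene, stood at 3042, 332, 348 and 1657 CPM against 2530 to 3376 CPM, low in hC4B/- 2 and 3. Selplg and Rhob were instead highest in hC4B/- 3, at 1399 and 566 CPM. In bulk libraries, fewer cells of a type and less RNA per cell cannot be told apart.

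Markers of other cells differed by library. Neutrophil genes, 7 tested, were all below 0, with a median log2 fold change of -3.05, and their summed level was 0.854 to 182 CPM in hC4B/- and 102 to 1430 CPM in WT. WT 2 was the highest, with 69 CPM of the collagenase Mmp8, 144 of Ngp and 159 of Camp. Neuronal markers summed to 46 to 197 CPM in hC4B/- and 6.9 to 60.9 CPM in WT, with 159 CPM of the 197 in hC4B/- 1 being Elavl3. Astrocyte markers summed to 64 to 296 CPM against 321 to 630 CPM, without overlap, but of 5 tested members 4 were above 0 and 1 below. The lower member, the glutamate transporter Slc1a3, made up most of the sum in WT and stood at 155, 48.2, 30.6 and 253 CPM against 313, 349, 607 and 351 CPM. Oligodendrocyte lineage markers summed to 16.8 to 89.3 CPM against 15.7 to 39.1 CPM, and endothelial and mural markers to 12.8 to 48.2 CPM against 8.13 to 80.1 CPM. Of 6 endothelial and mural members tested, 3 were above 0 and 3 below: the endothelial adhesion molecule Pecam1 stood at 1.46 to 12.1 CPM against 5.28 to 63.4 CPM, and the mural gene Rgs5 at 0 to 12.4 CPM against 0 to 0.767 CPM. Border macrophage markers summed to 341 to 550 CPM against 409 to 1796 CPM, with WT 3 the highest, while 2 of 3 tested members were above 0. Mrc1, the mannose receptor, stood at 43.1, 13.3, 12.3 and 45.3 CPM against 7.01, 12.8, 9.2 and 17.9 CPM. Monocyte markers summed to 14.6 to 41.0 CPM against 5.01 to 55.5 CPM, and lymphocyte markers to 4.38 to 33.8 CPM against 4.98 to 13 CPM. The part of these cells in the differences above was not tested.

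Larger functional groups showed no gene past the test. Of 71 cytosolic ribosomal protein genes, 43 were above 0 and 28 below with all 8 libraries, and 64 and 7 without hC4B/- 2 and 3, where 43.2% of all genes were above 0 and 56.3% below. The median log2 fold change of the list was then 0.41 against -0.19 over all genes. Of 7 mitochondrially encoded transcripts tested, 4 were below 0, and all 7 were below 0 without hC4B/- 2 and 3. Summed over 13 genes, these transcripts stood at 1318 to 1554 CPM in hC4B/- and 2069 to 2424 CPM in WT, without overlap. Glycolysis genes, 16 of 22 above 0, had a median of 0.66, and 0.25 without hC4B/- 2 and 3. Gpi1, glucose phosphate isomerase, stood at 53.8, 30.2, 91.9 and 16.8 CPM against 8.68, 14.9, 15.3 and 26.4 CPM, and the groups overlapped. Type I interferon genes, 13 of 23 above 0, antigen presentation genes, 6 of 17, phagocytosis receptors, 13 of 28, lysosomal genes, 13 of 32, and lipid genes, 8 of 20, lay on both sides of 0.

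**Figure D5:**
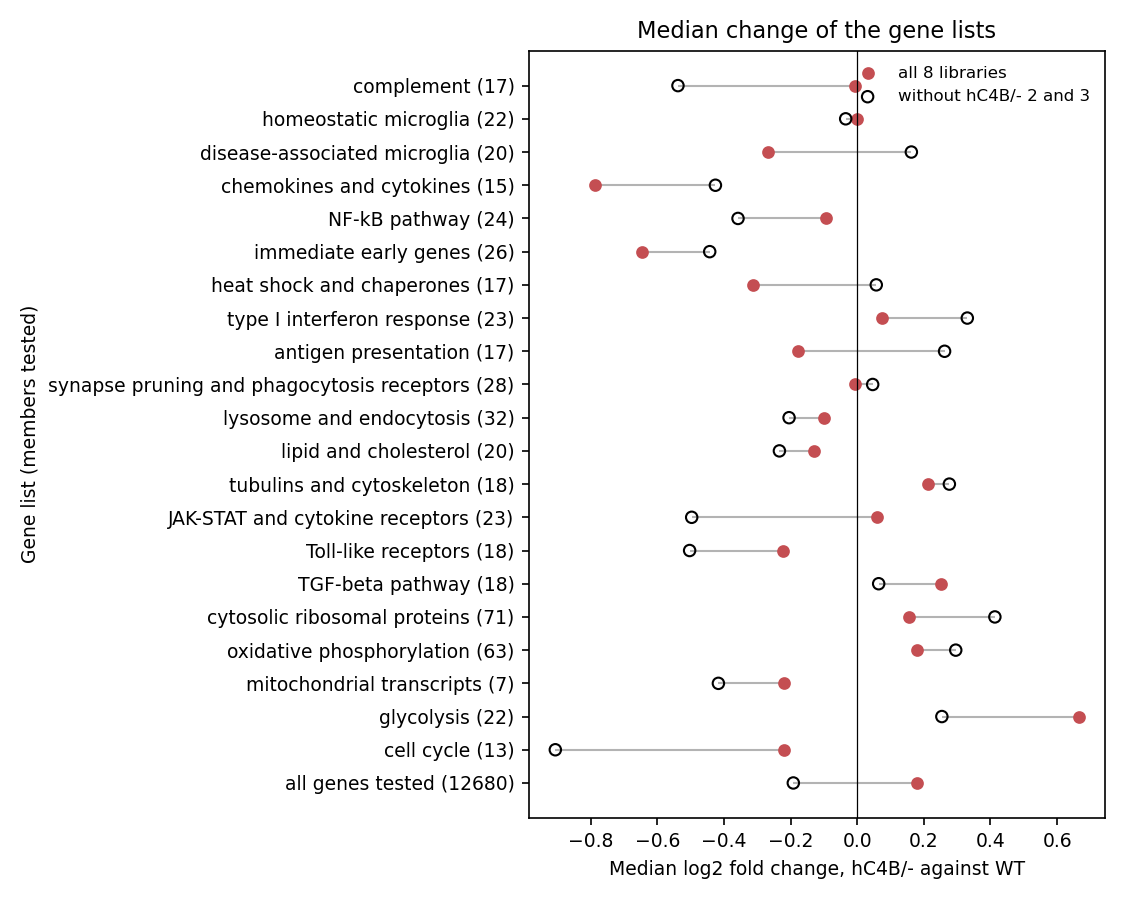
Median log2 fold change of hC4B/- against WT (horizontal axis) for each of 21 gene lists and for all genes tested, with all 8 libraries (filled) and without hC4B/- 2 and 3 (open); numbers in brackets are members tested. Chemokines and cytokines (-0.79) and immediate early genes (-0.65) have the lowest medians with all 8 libraries, and glycolysis (0.66) the highest.

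Other settings also moved the median of all genes, so list medians were set against it in each, a measure chosen after seeing the data and not tested. Relative to it, the medians of 18 of the 21 lists took both signs over the settings tried. Immediate early genes stood below it in every one (-0.25 to -1.52), as did the NF-kB list (-0.066 to -1.82) and Toll-like receptors (-0.11 to -1.87). The low ends of these ranges were not particular to them. Among lists that took both signs, mitochondrial transcripts reached -1.89, homeostatic microglia genes -1.56 and oxidative phosphorylation -1.39, while complement reached only -0.71. With no filter on low counts, the median of all 44941 genes tested was 1.28, against 0.18 in the main fit.

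Where hC4B/- differed from C4-/- and hC4A/- was read from direct contrasts in the same fit. Against C4-/-, 0 of 12680 genes passed (0%) and 573 (4.52%) had an unadjusted p under 0.05, 236 higher (1.86%) and 337 lower (2.66%). Against hC4A/-, 0 passed (0%) and 2122 (16.7%) were under that level, 1715 higher (13.5%) and 407 lower (3.21%). Ccl2 was lower than in C4-/- by a log2 fold change of -2.09 and than in hC4A/- by -2.93, with the C4-/- libraries at 3.99 to 31.7 CPM and hC4A/- at 2.93 to 67 CPM. The levels overlapped with hC4B/-, and all 3 of these genotypes lay below WT. Only the WT names carry the letter described above. Where WT alone differs, as here and in Tubb5, genotype and how the libraries were made cannot be told apart. Cry1 was higher by 3.08 and 3.97, with 0 to 4.59 CPM in C4-/- and 0.585 to 2.69 CPM in hC4A/-, below the lowest hC4B/- library. Elavl3 was higher by 5.29 and 7.28, with at most 3.93 and 0.687 CPM, and C4-/- overlapped hC4B/- 4. The 2 hC4A/A libraries, for which no contrast was made, stood at 3.87 to 7.77 CPM for Cry1 and 0 to 10.4 CPM for Elavl3, so the higher of them lay within the hC4B/- range in both genes. Ppp1r3b was lower by -2.82 and -2.78. Tubb5 differed by -1.0 and -0.70, with 49.8 to 442 CPM in C4-/- and 170 to 251 CPM in hC4A/-, all below the lowest WT library. Nacad differed by -1.40 and -1.42, with means of 23 and 23.2 CPM. None of these contrasts had an edgeR adjusted p under 0.05.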

How the data were processed

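Per the labels, RNA of sorted microglia was amplified by template switching. STAR and edgeR on build GRCm38 are named per the submitters' processing notes; versions and the gene annotation: not given in the sources used here. Deposited files hold raw read counts per gene. The unstranded column was used, so overlapping antisense genes cannot be told apart, and summary lines stayed out of library sizes and tests (in the 8 libraries, unmapped reads 16.2% to 42.1%, multimapping 14.6% to 28.9%, without feature 23.1% to 39.9% and ambiguous 0.919% to 1.65%). Symbols came from GENCODE annotation of GRCm38 (54809 of 54838 genes).

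All 20 libraries entered 1 edgeR 4.0.16 quasi-likelihood fit (R 4.3.3; filterByExpr by genotype, TMM, robust, 15 residual degrees of freedom), with p-values adjusted by Benjamini-Hochberg over 12680 genes at a threshold of 0.05. The standard error is the log2 fold change's size over the square root of F. Levels are TMM-scaled CPM. DESeq2 1.42.0, limma-voom 3.58.1, other scalings, filters and sample sets were alternatives. The fit was tested on simulated data. Each library was taken as 1 mouse; where nothing shows separate animals, p-values measure only the spread between libraries. The cDNA was amplified and reads carry no molecular identifiers: intervals and floors therefore cover counting error alone. The members and gene lists were chosen with earlier results of these data known. Named genes were C4b and C4a, the 10 of smallest p in each direction (5 without hC4B/- 2 and 3), the 8 most abundant protein-coding genes without overlap in each direction, up to 3 of smallest p in each list, and 6 genes seen earlier; others are said to be chosen after their values were seen. Upstream sequences are from RefSeq. Some genes are not reported here.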

Additional observations from a re-analysis of the deposited data

Results flagged for a closer look

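Of 194 group values checked, with levels as log2(CPM + 1), 11 held a library far from the other 3 of its genotype. That is close to the share that chance alone flags, about 1 group in 20. The measure was the gap to the nearest library over the range of the 4. All 11 were in WT, but the measure cannot flag a group that splits into 2 and 2, as hC4B/- often did. On CPM without a log, 11 of the 62 genes were past the same limit in hC4B/-, 8 of them through hC4B/- 3, and 15 in WT. WT 3 was the flagged library in C4b and C4a (1.53 CPM each, the other 3 at 0), where any count above 0 gives the largest possible ratio. It was also flagged in Slc1a3 (607 CPM), Ubqln1 (15.3 CPM) and Klf13 (4478.5 CPM), and in the summed levels of chemokines and cytokines (1467 CPM), lipid and cholesterol genes (8755 CPM) and border macrophage markers (1796 CPM). WT 4 held the only WT count of Cspg4 (0.406 CPM), flagged in the same way as C4b. WT 1 had the largest total, 2412020 counts to 6 digits, and WT 2 the lowest sum of Toll-like receptor genes (615 CPM).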

How the results depend on the processing

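Across 19 other settings, no gene was called except in DESeq2 (53), with no filter on low counts (28), in a fit of only the 8 libraries (1, Ccl2) and without hC4B/- 4 (1, C4b). Leaving out each replicate in turn gave 0 to 1 called genes, 848 to 2229 genes at an unadjusted p under 0.05 and 591 to 1360 genes without overlap, and the 848 came without hC4B/- 3. Genes at that unadjusted p numbered 730 without hC4B/- 2 and 3, 874 without all 4 libraries over 27000 genes, 550 in the 8 libraries alone (6319 genes tested), 681 for hC4B/- 1 and 4 against WT 1 and 2, 1051 in limma-voom, 6064 with no filter on low counts and 2879 without satellite-like genes. Genes without overlap numbered 1349 without hC4B/- 2 and 3 or all 4 broad libraries, 286 in the 8 libraries alone, 1781 against WT 1 and 2 and 3421 for hC4B/- 1 and 4 against WT 1 and 2, where fewer libraries have to separate. Deviations of same-numbered libraries had correlations of -0.011 to 0.133, and those of differently numbered libraries -0.127 to 0.097. The largest, 0.133, was that of WT 3 and hC4B/- 3. All were small, so the numbers were not taken as pairs. A fit with the replicate block gave 0 called and 1168 genes at an unadjusted p under 0.05.

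Of 62 genes, 19 were called in at least 1 setting and 7 turned sign in at least 1. Without hC4B/- 2 and 3, without the 4 broad libraries, and for hC4B/- 1 and 4 against WT 1 and 2, the log2 fold change was -1.38, -1.39 and -1.20 in Jak3, -2.63, -2.69 and -2.84 in Fam117a, -1.60, -1.60 and -1.24 in Ubqln1, -0.012, -0.0098 and -0.36 in Tpi1, -0.69, -0.69 and -0.23 in Rhob, and 0.18, 0.18 and 0.070 in P2ry12. Zmiz2 stood at -0.89 in the first pair of these. In the 8 libraries alone, DESeq2 and RLE scaling, P2ry12 stood at 0.18, 0.069 and 0.069. Over leave-one-out fits Tpi1 ran from -0.52 to 3.33 and P2ry12 from -0.38 to 0.011. The cause was not tested. Settings with WT 1 and 2 alone were chosen after seeing the data. Of 587 list medians under other settings, 134 moved by more than the spread between WT libraries. Depth limits genes at 0 to 3 counts in a group, where a fitted fold change is no bound.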
